A study of Mus musculus with 6 samples.

Results

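The transcripts of 10 genes of the oxidant defence were examined in the livers of mouse pups with and without an activated human *SRY* transgene. They comprised the Nrf2 targets *Nqo1*, *Gclc*, *Gclm*, *Txnrd1*, *Srxn1* and *Hmox1* and the antioxidant enzymes *Gpx1*, *Cat*, *Sod1* and *Sod2*. All probes carrying one of these symbols on the bead array were taken, which gave 13 probes among 25697 probes in the table, or 10 of 18138 symbols. Total RNA came from the livers of male pups of the FVB strain (FVB/N in full) at postnatal day 6, with 3 arrays for hSRY-ON and 3 for hSRY-OFF livers, each from a mouse of its own. By the definition of hSRY-OFF in the paper's methods, both groups carried the *Signalox-hSRY* cassette, a single copy placed at the *H11* locus in 1 transgenic line. The paper also calls the array controls age-matched control pups, and it defines control littermates as lacking the cassette. By its definition of hSRY-OFF, the cassette was not recombined in these pups, so that the *CAG* promoter drove the red fluorescent protein DsRed2. In hSRY-ON pups, Cre protein from the oocyte of a *Ddx4-Cre* mother had recombined it in the fertilized egg, and the same promoter, which is active in nearly all cell types, drove FLAG-tagged human SRY together with EGFP. The hSRY-ON pups chosen for the arrays did not themselves carry *Ddx4-Cre*. Whether pups of both groups shared litters is not given in the labels. By the paper's account, Cre from the oocyte recombines the cassette efficiently whether or not the pup inherits *Ddx4-Cre*. Unrecombined pups would then come from other litters and mothers, so effects of litter or mother cannot be told apart from those of the transgene. The table names no probe for human *SRY*, so the transgene was not checked here.

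Nrf2, encoded by *Nfe2l2*, is a transcription factor that is held in the cytoplasm and marked for degradation by Keap1. Oxidants and electrophiles modify Keap1, after which Nrf2 enters the nucleus and binds, with a small Maf protein, to antioxidant response elements near genes for glutathione synthesis, thioredoxin recycling, quinone reduction and heme breakdown. Bach1 competes for the same elements as a repressor and is released from them by heme. Superoxide dismutases convert superoxide into hydrogen peroxide, which catalase in peroxisomes and glutathione peroxidases elsewhere in the cell break down, and the liver is rich in all of these enzymes.

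The core of an antioxidant response element, TGACNNNGC on either strand, was searched in the 300 bases from 250 before to 50 after each transcription start in RefSeq's promoter table (GRCm38.p6). It was found in 12.39% of all 32851 promoters, and in at least 1 promoter of 13.99% of genes. Of the 10 genes, 8 matched the table and *Hmox1* and *Gclc* were not matched. A match was present for *Gclm*, *Txnrd1*, *Srxn1* and *Sod1*, in 4 of the 10 promoters of the 8 genes. These letters were not in the windows of *Nqo1*, *Gpx1*, *Cat* and *Sod2*. Elements outside the 300 bases were not searched. The same motif followed by A was found in 3.041% of promoters and, among the 8 genes, in 1 of the 3 promoters of *Txnrd1*. The 3 matches that lie before the start are shown, each within its flanking bases and 5′ to 3′ along the strand of the gene, because they hold the letters that Nrf2 and a small Maf protein are known to recognise. Capitals mark the motif, which is on the opposite strand in each. They lie at chr3:122245413-122245441 (+), chr10:82859104-82859132 (+) and chr16:90220696-90220724 (+), in that order.
Gclm: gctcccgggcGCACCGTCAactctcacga
Txnrd1: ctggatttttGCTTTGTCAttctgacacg
Sod1: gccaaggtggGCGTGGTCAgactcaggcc
Binding was not measured, so these matches describe the sequence alone.

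Of the 13 probes, 10 were detected well enough to be tested and represented 8 of the genes, while *Gclc* and *Txnrd1* had no tested probe. *Hmox1* rose and *Cat* fell in hSRY-ON livers, and none of the other tested probes passed the threshold (adjusted p under 0.05, limma). Thus 1 of the 10 tested probes was called higher and 1 lower. Over the whole array 33.1% of 10734 tested probes were called, 15.8% higher and 17.3% lower. The share called in either direction was 18.9%, 20.2% and 25.5% without hSRY-OFF replicates 1, 2 and 3. It was 24.2%, 29.4% and 37.8% without hSRY-ON replicates 1, 2 and 3, and later counts without single arrays stand beside these shares. The median difference of the 10 probes, hSRY-ON minus hSRY-OFF, was 0.04 on the log2 scale, against 0.02 over all tested probes. The hSRY-ON and hSRY-OFF ranges were apart at 3 of the 10 probes, 2 of them higher and 1 lower in hSRY-ON. For all tested probes this share was 50%, with 25.4% higher and 24.6% lower. In whole liver, fewer cells of a type and less RNA per cell cannot be told apart. The arrays had detected 40.2% to 41.9% of all probes, and their median intensities before normalization were 147 to 165. Spread was larger among the hSRY-ON arrays, where the median SD of a tested probe was 0.21 compared with 0.14 among the hSRY-OFF arrays. Over the pairs of arrays left without replicate 1, 2 or 3, it was 0.20, 0.18 and 0.14 in hSRY-ON and 0.13, 0.11 and 0.10 in hSRY-OFF.

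**Figure D1:**
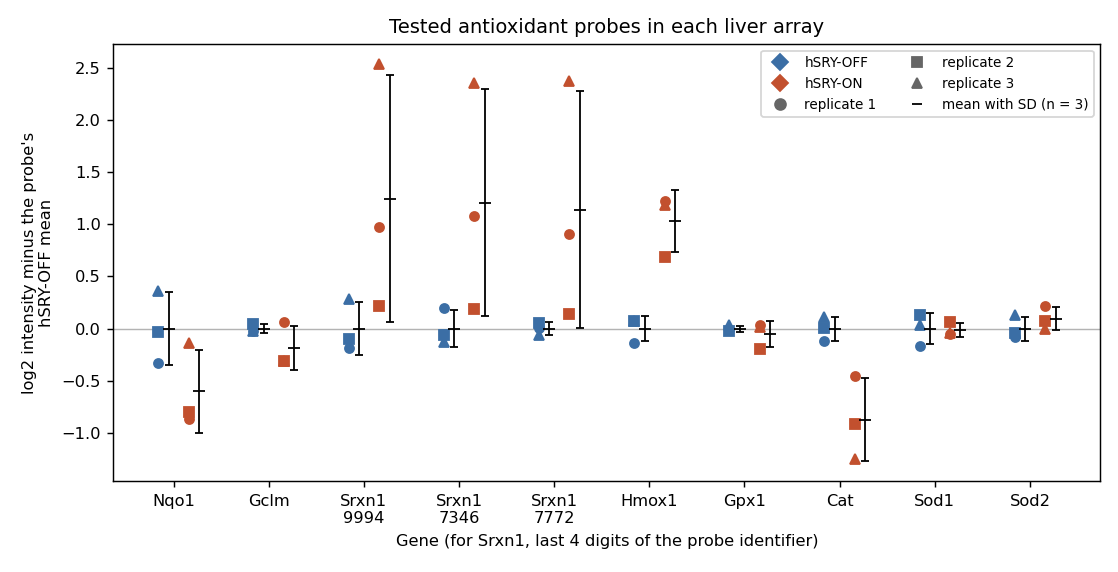
Log2 intensity minus the hSRY-OFF mean of the same probe (y axis) for the 10 tested probes on each of the 6 arrays, with a symbol per replicate and, beside the points, the group mean with its SD (n = 3). The hSRY-ON points of *Hmox1* lie above and those of *Cat* below all controls, the 3 *Srxn1* probes spread widely in hSRY-ON, and the groups of *Gpx1*, *Sod1* and *Sod2* overlap.

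Heme oxygenase 1, the product of *Hmox1*, opens the heme ring and releases biliverdin, carbon monoxide and iron. Its probe (ILMN_2788073) had log2 intensities of 9.08, 9.29 and 9.29 on hSRY-OFF arrays 1 to 3 and of 10.44, 9.91 and 10.41 on hSRY-ON arrays 1 to 3. All hSRY-ON values lay above all hSRY-OFF values, and hSRY-ON replicate 2 was the lowest of its group. The means were 9.22 ± 0.12 and 10.26 ± 0.30 (SD, n = 3 each), so that *Hmox1* rose 2.05-fold, a log2 difference of 1.03 ± 0.17 (SE, 95% interval 0.63 to 1.44; limma adjusted p = 0.00452). It was called higher under each of the 18 alternative settings, with differences of 0.88 to 1.20 and adjusted p of 0.000852 to 0.0243. *Hmox1* is also expressed in macrophages that take up red cells, and the markers of both cell types are given further on.

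Catalase, the product of *Cat*, splits hydrogen peroxide in peroxisomes. Its probe (ILMN_2826110) read 9.16, 9.27 and 9.39 on the hSRY-OFF arrays and 8.82, 8.36 and 8.02 on the hSRY-ON arrays. The groups did not overlap, and the hSRY-ON arrays were spread over a wider range than the controls. The means were 9.27 ± 0.11 and 8.40 ± 0.40 (SD, n = 3 each), and *Cat* fell by 0.87 ± 0.21 on the log2 scale (SE, 95% interval -1.36 to -0.39; limma adjusted p = 0.0166), a 1.83-fold decrease. The call was lost when 1 of 2 control arrays was left out, with an adjusted p of 0.0565 without hSRY-OFF replicate 2 and 0.056 without hSRY-OFF replicate 3 and differences of -0.87 and -0.82. The difference ranged from -1.09 to -0.62 over all alternatives, of which 15 of 18 kept the call, and the adjusted p from 0.00777 to 0.0565.

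Sulfiredoxin, the product of *Srxn1*, restores peroxiredoxins that were inactivated by excess peroxide. It was measured with 3 probes, and each of them gave the same order of the hSRY-ON arrays, with replicate 3 highest and replicate 2 lowest. The first (ILMN_2677772) had log2 intensities of 9.10, 9.14 and 9.02 on the hSRY-OFF arrays and of 9.997, 9.22 and 11.46 on the hSRY-ON arrays. All its hSRY-ON values exceeded the hSRY-OFF values, replicate 2 by little and replicate 3 by far. The second probe (ILMN_2667346) gave 7.79, 7.53 and 7.46 against 8.67, 7.79 and 9.95, and the third (ILMN_1229994) gave 5.86, 5.95 and 6.33 against 7.02, 6.26 and 8.59. In both of these, hSRY-ON replicate 2 lay within the range of the controls. The differences were 1.14 ± 0.50, 1.21 ± 0.48 and 1.25 ± 0.53 (SE), with limma adjusted p of 0.117, 0.0918 and 0.108 and 95% intervals of -0.02 to 2.30, 0.08 to 2.33 and 0.01 to 2.48.

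The SD of these probes among the hSRY-ON arrays, 1.14, 1.09 and 1.18, lay at the 99.1 to 99.4 percentile of all tested probes, whereas among the hSRY-OFF arrays it was 0.06, 0.17 and 0.25. Across the 6 arrays the probes correlated with each other at Pearson's r of 0.965 to 0.991, as a description, since they target 1 gene on the same arrays. All 3 passed the threshold without hSRY-ON replicate 2, with differences of 1.65, 1.71 and 1.76 and adjusted p of 0.0238, 0.015 and 0.0264 in the same order of probes, and with array weights, which give less weight to arrays that deviate from the fit, at differences of 0.925, 0.986 and 1.08. Without hSRY-ON replicate 3 the differences were 0.52, 0.63 and 0.60, and none passed. The summed intensity of the neutrophil markers was also highest on hSRY-ON replicate 3, at 118331 against 44172 to 64463 on the other 5 arrays, and the part of these cells in the *Srxn1* values was not tested.

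**Figure D2:**
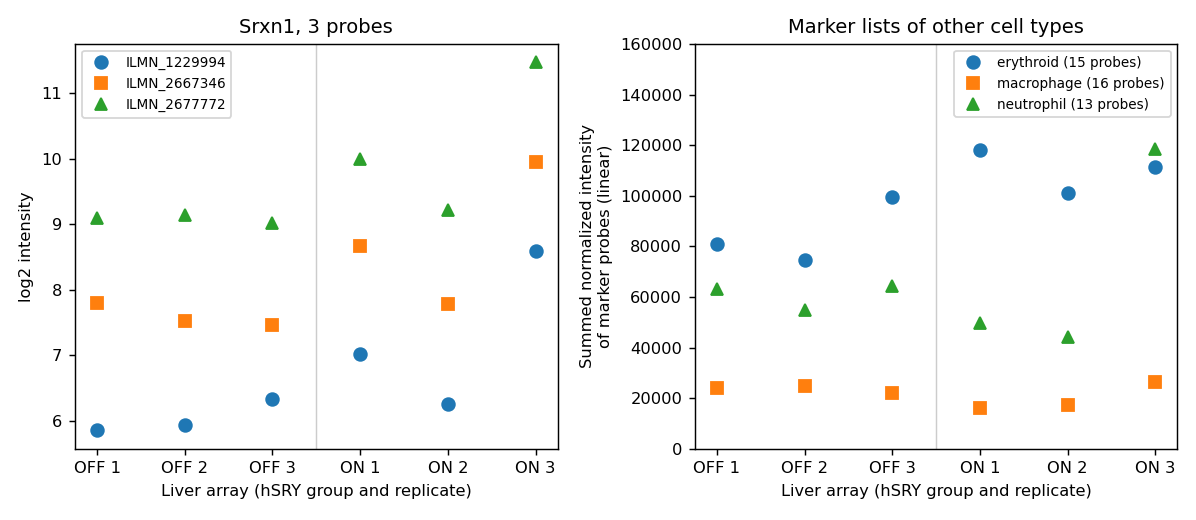
Left, log2 intensity of the 3 *Srxn1* probes on each of the 6 arrays. Right, summed normalized intensity (linear scale) of the erythroid, macrophage and neutrophil marker probes on the same arrays. Replicate 3 of hSRY-ON has the highest *Srxn1* values and the highest neutrophil and macrophage sums. The macrophage sum is weighted to its brightest probe, for *Lyz2*.

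NQO1 reduces quinones by transferring a pair of electrons at once, and its gene *Nqo1* is among the most used readouts of Nrf2 activity. *Nqo1* (ILMN_2726371) had log2 intensities of 6.98, 7.28 and 7.68 in hSRY-OFF and of 6.45, 6.51 and 7.17 in hSRY-ON livers. The ranges overlapped only through hSRY-ON replicate 3, which lay above hSRY-OFF replicate 1. The difference was -0.60 ± 0.25 (SE, 95% interval -1.19 to -0.02), from 7.31 ± 0.35 to 6.71 ± 0.40 (SD, n = 3 each), and was not past the threshold (limma adjusted p = 0.101). It passed without hSRY-ON replicate 3 (-0.84, adjusted p = 0.0217) and with array weights (-0.64, adjusted p = 0.0423). The probe was dim, with deposited intensities of 212 to 306 where the median of all probes was 147 to 165. The other *Nqo1* probe (ILMN_2766386) was detected on 0 arrays, with detection p of 0.385 to 0.827.

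Glutamate-cysteine ligase makes the first and rate-limiting bond of glutathione, with *Gclc* encoding the catalytic and *Gclm* the modifier subunit. *Gclm* (ILMN_1256354) read 10.68, 10.76 and 10.69 on the hSRY-OFF arrays and 10.77, 10.40 and 10.39 on the hSRY-ON arrays. The value of hSRY-ON replicate 1 lay above all controls, and the other two lay below them. The means were 10.71 ± 0.04 and 10.52 ± 0.21 (SD, n = 3 each), with a difference of -0.19 ± 0.14 (SE, 95% interval -0.52 to 0.14; limma adjusted p = 0.333). The single *Gclc* probe (ILMN_2608016) was detected on 0 of the 6 arrays, with detection p of 0.197 to 0.892, and so was that of *Txnrd1* (ILMN_2484465), which encodes the cytosolic thioredoxin reductase, with detection p of 0.123 to 0.613. Deposited intensities of these 2 probes were 133 to 155, at the level of the array background, so a change of either transcript was not detectable with these probes.

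The last group was that of the enzymes that remove superoxide and peroxide. *Gpx1* encodes the main glutathione peroxidase of the cytosol, a selenoprotein. Its probe (ILMN_1241367) had log2 intensities of 15.29, 15.28 and 15.33 in hSRY-OFF and of 15.33, 15.11 and 15.31 in hSRY-ON livers. The ranges overlapped, and hSRY-ON replicate 2 was the lowest array. Its deposited intensity was 78.4% to 92.7% of the highest on each array, so near the top of the scale a rise could have been compressed. The difference was -0.05 ± 0.12 (SE, 95% interval -0.33 to 0.23; limma adjusted p = 0.776).

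*Sod1* encodes the cytosolic copper and zinc superoxide dismutase. Its probe (ILMN_2752552) read 13.36, 13.65 and 13.56 in hSRY-OFF and 13.46, 13.58 and 13.48 in hSRY-ON livers, where all hSRY-ON values lay inside the range of the controls. The difference was -0.01 ± 0.13 (SE, 95% interval -0.31 to 0.28; limma adjusted p = 0.947). *Sod2* encodes the manganese enzyme of the mitochondria, and its probe (ILMN_2650280) read 11.89, 11.93 and 12.10 in hSRY-OFF and 12.19, 12.05 and 11.97 in hSRY-ON livers. Those ranges overlapped as well, with a difference of 0.09 ± 0.13 (SE, 95% interval -0.20 to 0.39; limma adjusted p = 0.595).

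**Figure D3:**
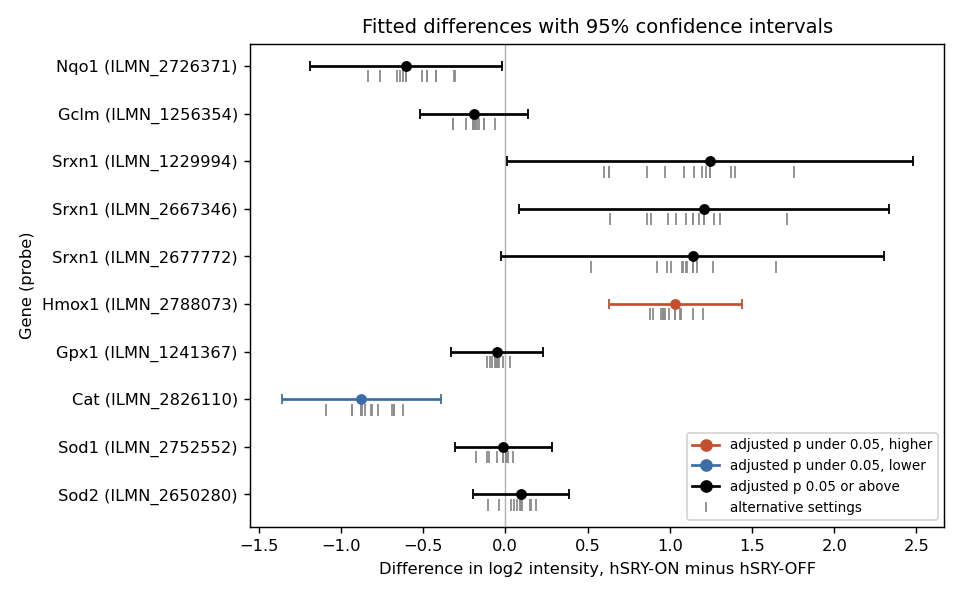
Difference in log2 intensity, hSRY-ON minus hSRY-OFF (x axis), with its 95% interval for the 10 tested probes, and grey ticks for the same difference under each alternative setting. The intervals of *Hmox1* (0.63 to 1.44) and *Cat* (-1.36 to -0.39) belong to the only probes past the threshold, and those of the 3 *Srxn1* probes are the widest.

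The machinery that controls Nrf2 was examined next, with a list of 13 regulators of which 10 genes were tested with 14 probes. Of these probes 4 were called higher and 0 lower by limma (28.6%), also 0 lower at an unadjusted p under 0.05, with a median difference of 0.24. *Nfe2l2* itself (ILMN_1224128) was close to the detection limit, at 5.61, 6.25 and 6.28 in hSRY-OFF and 6.22, 6.55 and 5.97 in hSRY-ON livers. It was seen on 2 of the control arrays and on all 3 hSRY-ON arrays, and its difference of 0.20 ± 0.23 (SE) did not pass (limma adjusted p = 0.539) and was -0.02 without hSRY-OFF replicate 1. *Keap1* had 4 probes, of which 1 rose (ILMN_2993267, 0.41, adjusted p = 0.0404) and the other 3 differed by 0.28, -0.01 and -0.02 without passing. *Bach1* rose from 6.09, 6.09 and 6.32 to 7.01, 7.19 and 6.50, a difference of 0.74 ± 0.19 (SE, limma adjusted p = 0.0244). *Sqstm1*, whose product p62 takes Keap1 to autophagy, rose by 0.70 ± 0.15 (SE, adjusted p = 0.0124). *Maff*, a small Maf partner and 1 of the 4 calls, was seen on all 3 hSRY-ON arrays and on 0 of the controls. It met the detection filter through the hSRY-ON arrays alone, so its adjusted p (0.00812, limma) is no independent support. It was at least 1.51-fold higher, where the bound sets the hSRY-ON mean against the lowest signal of detected probes on the hSRY-OFF arrays. The number of calls was 1 without hSRY-OFF replicate 1, 2 without hSRY-OFF replicate 2 and 2 without hSRY-ON replicate 1. *Bach1* lost its call without any 1 of hSRY-OFF replicates 1 and 2 and hSRY-ON replicates 1 and 2 (adjusted p = 0.0564 to 0.0874) and with trimmed mean scaling without background correction (0.32, adjusted p = 0.0651), *Sqstm1* without hSRY-OFF replicate 1 (0.0544), and the *Keap1* probe without any array except hSRY-ON replicate 2 (0.0588 to 0.127) and with median or trimmed mean scaling.

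Among other known Nrf2 targets, with 27 tested probes from 19 genes, 2 probes were called higher and 10 lower (44.4%), and the median difference was -0.24. The genes with the smallest p-values were glutathione transferases, which join glutathione to electrophiles. *Gsta3* (ILMN_3138685) read 9.74, 9.91 and 9.78 in hSRY-OFF and 7.15, 7.44 and 7.66 in hSRY-ON livers, and fell by 2.40 ± 0.16 on the log2 scale (SE, limma adjusted p = 0.00015), while its second probe (ILMN_1241437) fell by 1.15. *Gsta4* fell by 1.54 ± 0.12 (SE) and *Gstm4* by 1.35 ± 0.13 (SE), at adjusted p of 0.000276 and 0.000492. These are members of families with similar sequences, so a probe may also bind relatives. The 2 probes called higher were those of *Akr1b8*, an aldo-keto reductase (0.91, adjusted p = 0.00409), and *Cbr1*, a carbonyl reductase (0.82, adjusted p = 0.0109), the second of which is named after its values were seen. Genes of the list that were detected on 0 arrays included *Gsta1*, *Gsta2* and *Slc7a11*, the cystine transporter.

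For glutathione synthesis and recycling, 10 of 16 tested probes were called lower and 2 higher (75%), with a median difference of -0.52. *Ggct* (listed under an older name), which acts in the gamma-glutamyl cycle, fell by 1.72 ± 0.18 on the log2 scale (SE, limma adjusted p = 0.000722). *Hagh*, the glyoxalase II that returns glutathione, fell by 1.27 ± 0.15 (SE), and *Anpep*, a cell surface aminopeptidase that can split cysteinylglycine, fell by 1.31 ± 0.17 (SE). Without hSRY-OFF replicate 2 the probes called lower were 6, and without hSRY-ON replicate 3 those called higher were 4.

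Among peroxidases, peroxiredoxins and thioredoxins, 8 of 32 tested probes were called higher and 7 lower (46.9%), with a median difference of 0.23. *Gpx3*, the secreted glutathione peroxidase of plasma, read 8.71, 8.95 and 8.92 in hSRY-OFF and 13.69, 13.27 and 12.60 in hSRY-ON livers. All hSRY-ON arrays were far above the controls, and *Gpx3* rose by 4.33 ± 0.26 on the log2 scale (SE, limma adjusted p = 0.00013), or 20.1-fold. *Msrb1* (listed as *Sepx1*) and *Msrb2*, which repair oxidized methionine, fell by 1.07 ± 0.11 and 0.90 ± 0.11 (SE), with adjusted p of 0.00077 and 0.00152. The probes called higher numbered 5 without hSRY-OFF replicate 1 or without hSRY-OFF replicate 2.

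NADPH feeds both glutathione and thioredoxin reduction, and 4 of 12 tested probes for its supply were called lower (33.3%) and 0 higher by limma, with a median of -0.14, while 2 were higher at an unadjusted p under 0.05. *Idh1*, the cytosolic isocitrate dehydrogenase, fell by 1.44 ± 0.18 on the log2 scale (SE, limma adjusted p = 0.00138), and the folate enzymes *Mthfd1* and *Aldh1l1* fell by 0.76 and 0.89. In heme breakdown and ferritin, 2 of 18 tested probes were called higher and 3 lower (27.8%), with a median of -0.01. *Hmox2*, the constitutive heme oxygenase, rose from 9.02, 9.35 and 9.24 to 10.34, 10.40 and 10.01, a difference of 1.05 ± 0.16 (SE, adjusted p = 0.00293). Of 2 *Fth1* probes for the ferritin heavy chain, 1 rose (ILMN_2876071, 0.61, adjusted p = 0.00743) and the other differed by 0.24 (adjusted p = 0.135). All 3 calls lower were probes of *Cyb5r3*, the cytochrome b5 reductase, of which the one with the smallest p fell by 0.91 ± 0.11 (SE). Without hSRY-ON replicate 3, 5 probes of this list were called in each direction.

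Enzymes that produce superoxide or peroxide were called lower at 5 and higher at 1 of 14 tested probes (42.9%), with a median difference of -0.44, and the call higher was lost without hSRY-OFF replicate 1, hSRY-OFF replicate 2 or hSRY-ON replicate 1 (0 calls each). That call was *Uox*, the peroxisomal urate oxidase, named after its values were seen, which rose by 0.87 ± 0.20 on the log2 scale (SE, limma adjusted p = 0.0156, or 0.0548 to 0.0621 without the named arrays and 0.0523 with median scaling). *Maob*, the monoamine oxidase B of mitochondria, fell by 1.63 ± 0.15 on the log2 scale (SE, limma adjusted p = 0.000438). The oxidases *Pipox* and *Hao1*, also of peroxisomes, fell by 1.27 ± 0.14 and 0.87 ± 0.13 (SE). For the synthesis of selenoproteins, the class of *Gpx1* and *Txnrd1*, 4 of 7 tested probes were called lower and 0 higher by limma (57.1%), also 0 higher at an unadjusted p under 0.05, with a median of -0.74. *Sepsecs*, which makes the selenocysteinyl-tRNA, fell by 1.14 ± 0.14 (SE) with a probe detected on 2 of 3 hSRY-ON arrays and by 0.94 ± 0.16 (SE) with one detected on all. *Scly* and *Eefsec*, the selenocysteine lyase and elongation factor, fell by 1.08 and 0.74.

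**Figure D4:**
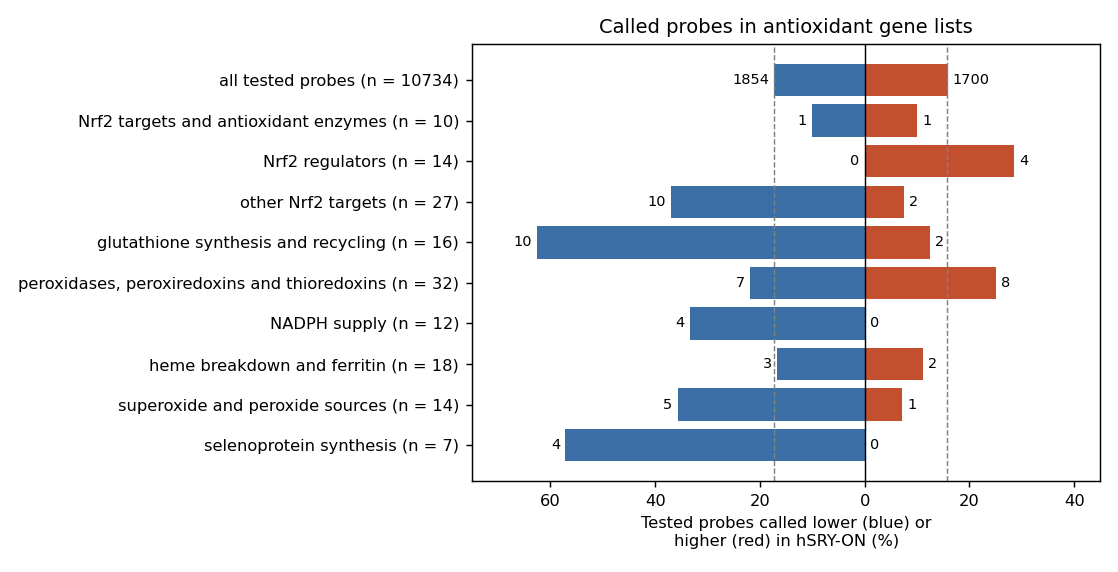
Share of tested probes called lower (bars to the left) or higher (bars to the right) in hSRY-ON livers, in percent, for the 10 tested probes and the related gene lists, with the number of called probes at each bar. Dashed lines mark the shares over all 10734 tested probes, 17.3% lower and 15.8% higher.

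Markers of the cell types in the sample were measured on the same arrays. Over all tested probes 15.8% were called higher and 17.3% lower, and 18.9% to 37.8% in either direction when 1 array was left out. All 11 hepatocyte marker genes with a probe were detected. Their sum ranged from 190851 to 204388 on the control arrays and from 188020 to 208213 on the hSRY-ON arrays. The brightest probes weigh most in this sum. Those of *Ahsg* (ILMN_2764036), *Trf* and *Apoa1* averaged 15.41, 15.32 and 15.10 on the log2 scale in controls. At this level, near the top of the scale, changes could have been compressed, so the sum says little about hepatocyte content. Of 13 tested probes 4 were called lower, among them that of *Alb* (-1.11, limma adjusted p = 0.00852). The *Alb* probe averaged only 7.94 in controls, so its fall may not describe albumin transcripts as a whole. The calls lower were 1 without hSRY-OFF replicate 2 and 2 without hSRY-OFF replicate 3. Red cell precursors still reside in the liver at this age and express catalase, *Gpx1* and *Sod1* at high levels. Their summed marker intensities were 74625 to 99357 in hSRY-OFF and 101019 to 118027 in hSRY-ON livers, with no overlap. The *Hba-a1* probe weighs most in these sums and read 15.50 on the log2 scale on every array. At this level, at the top of the scale, a change could have been compressed. Of 15 tested erythroid probes 6, of 4 genes, were called higher (40%) and 0 lower by limma. Also 0 were lower at an unadjusted p under 0.05, and the median was 0.71. *Alas2*, the erythroid enzyme that starts heme synthesis, rose by 0.93 ± 0.20 (SE, adjusted p = 0.0117, or 0.0505 without hSRY-OFF replicate 1), and *Hbb-b1* differed by 0.47 (adjusted p = 0.27). The *Hbb-b1* probe averaged only 7.48 in controls, so its difference may not describe *Hbb-b1* transcripts as a whole. The number of calls was 0 without hSRY-OFF replicate 1, 2 without hSRY-ON replicate 1 and 10 without hSRY-OFF replicate 3, and *Epb42* was detected on 0 arrays. The part of these cells in the *Hmox1*, *Cat*, *Gpx1* and *Sod1* values was not tested.

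Macrophage markers summed to 21971 to 24631 in hSRY-OFF livers and to 16030, 17272 and 26293 on hSRY-ON arrays 1 to 3. The brightest of their probes, for *Lyz2* (ILMN_1252076), weighs most in these sums. Its log2 intensity was 13.63 on hSRY-ON replicate 3 and 12.34 to 13.13 on the other arrays. Of 15 tested probes 4 were called lower (26.7%) and 1 higher (6.67%), with a median of -0.44, and *Cd163* and *Cd5l* were detected on 0 arrays. A probe of *Clec4f*, which marks Kupffer cells, fell by 0.88 ± 0.19 on the log2 scale (SE, limma adjusted p = 0.0132, or 0.0514 without hSRY-OFF replicate 2). Its other tested probe (ILMN_2876653), also among the 4 calls, fell by 0.44 and was detected on 0 of the hSRY-ON arrays. That probe met the detection filter through the hSRY-OFF arrays alone and lost its call under 11 of 17 alternative settings. A probe of *Adgre1* (listed as *Emr1*) fell by 0.75 ± 0.16 (SE, adjusted p = 0.0107). The second tested *Adgre1* probe differed by -0.80 ± 0.33 (SE, adjusted p = 0.0971) and passed without hSRY-ON replicate 3 (-1.19, adjusted p = 0.00482) and with array weights (-0.91, adjusted p = 0.00968). *Cd68* differed by -0.50 (adjusted p = 0.108, or 0.0106 without hSRY-ON replicate 3). The call higher was lost without any 1 of the 6 arrays, and the calls lower were 2 without hSRY-OFF replicate 1, 1 without hSRY-OFF replicate 2, 2 without hSRY-ON replicate 1 and 9 without hSRY-ON replicate 3. The part of these cells in the *Hmox1* values was not tested. Of 13 neutrophil probes 0 were called in either direction by limma and 1, lower, at an unadjusted p under 0.05, though 6 were called lower without hSRY-ON replicate 3. Endothelial markers were called higher at 5 (41.7%) and lower at 1 (8.33%) of 12 tested probes, where the call lower was lost without any 1 array except hSRY-ON replicate 2. Stellate cell markers were called higher at 5 probes (31.2%) of 2 genes, 4 of them for *Acta2*, and lower at 3 probes (18.8%) of 3 genes, of 16 tested probes with a median of -0.08. Of 3 tested biliary probes 1, for *Cldn4*, was called higher (33.3%). It was detected on 0 of the hSRY-OFF arrays and met the filter through the hSRY-ON arrays alone, so its call is a description. The probes of *Krt7* and *Cdh1* differed by -0.08 and -0.05 and were not called.

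Probes of other genes that followed the same pattern over the 6 arrays were looked up for *Nqo1*, *Hmox1* and *Cat*, as a description, since the arrays share group and normalization. The closest to *Hmox1* among 10344 probes were those of *Cdv3* (Pearson's r = 0.999), *Akr1b8* (0.996) and *Zmynd12* (0.995), and 215 probes had r over 0.95. The *Zmynd12* probe was detected on 0 of the hSRY-OFF arrays and met the detection filter through the hSRY-ON arrays alone. For *Cat* the closest were *Ppil3* (0.995), *Abcb8* (0.990) and *Apobec3* (0.984), with 87 probes over 0.95. For *Nqo1* they were *Mybl2* (0.993), *Pard3* (0.991) and *Thoc3* (0.985), with 29 probes over 0.95.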

How the data were processed

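Liver RNA of 3 hSRY-OFF and 3 hSRY-ON pups had been hybridised to MouseRef-8 v2.0 BeadChips. The authors deposited, per probe and array, a mean bead intensity on a linear scale, neither background-corrected nor normalized, and a detection p-value against the negative control beads. Scanner software and the build behind the probes are not given in the sources used here, and slides and scan dates were not used. The study names TCC, a package for count data, and the submitters' processing notes name limma. Intensities are not counts, so no count model was fitted. No column was left without a sample (0).

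Background was removed with limma 3.58.1 (nec, offset 16) in R 4.3.3. Arrays were then quantile-normalized and values taken to log2. The offset shrinks differences of dim probes. The test took in probes whose detection p was under 0.01 on 3 or more arrays, whatever their group (10734 probes, 8225 symbols), each probe on its own, with lmFit and eBayes without covariates. P-values were two-sided and adjusted by the Benjamini-Hochberg method over all tested probes at 0.05, and intervals are 95%. For a probe detected on no array of 1 group, a bound was computed with the undetected arrays at the higher of their own signal and the lowest detected signal. Such a probe met the filter through the other group alone, and its call is a description. In the lists, called probes of this kind were those of *Maff*, *Prdx6*, *Cldn4* and *Lrat* and 1 of *Clec4f*. Marker sums cover probes detected on any array. With 3 arrays per group, their number limits the precision.

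Of 18138 symbols, 14307 were current in RefSeq (GRCm38.p6), 2927 matched through an older name and 904 kept the name of the table. The 10 genes, the related lists and the marker lists were chosen with earlier results of these data known. Named were all 10 genes, *Nfe2l2*, *Keap1*, *Bach1*, *Hbb-b1*, *Alas2*, *Alb*, *Clec4f*, *Cd68* and *Adgre1* whatever their values, the 3 genes with the smallest p per related list, and the 3 probes with the highest Pearson correlation to *Nqo1*, *Hmox1* and *Cat*. On simulated data (5 sets of 6 arrays, 200 changed probes each, 11427 to 11527 probes tested), 50.1% of 2-fold and 83.6% of 4-fold changes were called, 4.47% of calls were unchanged probes and 0 calls had the wrong sign. These sets gave both groups the same spread and changed few probes. In the liver arrays 33.1% of tested probes were called and spread was larger in hSRY-ON, so the rates do not describe this comparison. Alternatives covered the background correction, offset, scaling, detection filter, array weights, trended robust eBayes, a threshold of 0.01, a replicate block and leaving out each array.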

Additional observations from a re-analysis of the deposited data

How the results depend on the processing

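Among the 10 tested probes, 4 were called higher with array weights, where 44.7% of all tested probes were called, and 1 to 4 when 1 array was left out, where 18.9% to 37.8% of all tested probes were called (29.4% without hSRY-ON replicate 2, which gave the 4). With array weights 2 were called lower, and leaving out 1 array gave 0 to 2. At an adjusted p under 0.01, 0 were called lower, where 15.5% of all tested probes were called in either direction. The number with non-overlapping groups was 3 to 5 without single arrays. Ranges lie apart more readily with fewer arrays, and the share over all tested probes was not computed for these settings. The counts are therefore not read as a gain. *Sod2* differed by -0.105 with median scaling and by -0.0397 with trimmed mean scaling without background correction. *Sod1* differed by 0.0186 with array weights and by -0.0965 to 0.0496 without single arrays, and *Gpx1* by -0.0933 to 0.0269. The *Keap1* probes ILMN_2621346 and ILMN_2707771 differed by 0.0539 and 0.0345 with array weights and by -0.113 to 0.0715 and -0.0780 to 0.0977 without single arrays, and *Nfe2l2* by -0.0213 to 0.336. None of these differences passed the threshold, and the cause of the changes was not tested. The motif followed by A was found in 3.041% of promoters.

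Same-numbered arrays of the groups did not deviate together (correlations of 0.02, 0.10 and 0.05, and 2 of 6 arrays correlated best with their own number), so the numbers were not taken as pairs. With the replicate block 2 of the 10 probes were called lower, *Nqo1* (adjusted p = 0.0247) beside *Cat*, 1 was called higher, and 29.9% of all tested probes were called. Under the block the *Keap1* probe ILMN_2993267 (adjusted p = 0.0776) and the *Clec4f* probe ILMN_2876653 (0.0606) lost their calls, 5 stellate probes were called lower and 0 macrophage probes higher. Without a detection filter 13% of 25697 probes were called, and the undetected probes of *Gclc*, *Nqo1* and *Txnrd1* gave differences of 0.03, 0.04 and -0.10 with adjusted p of 0.938, 0.876 and 0.756. The difference in detected probes per array was 82.3 (exact permutation test, p = 0.7, smallest possible 0.1), -100 at a detection p under 0.05, and -37.0 to 158.5 without single arrays.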
